A study of Homo sapiens with 8 samples.

Results

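Axon guidance ligands and receptors were examined in Rh41 cells after knockdown of G9a. The members were chosen by symbol from the deposited table: semaphorins of classes 3 to 7, plexins, neuropilins, ephrins, Eph receptors, SLITs, ROBO receptors, netrins 1 to 5 and UNC5 receptors. The table lists 60234 genes, and 68 symbols matched, 35 ligands and 33 receptors. EFNA3 stands on 2 rows, of which the one with the higher mean was kept. A mean of at least 1 CPM (reads of a gene, scaled to 1e+06 reads assigned to genes in its library) over the 8 libraries was reached by 52 members, and these were tested among the 15092 genes that reached it. Just inside the threshold lay UNC5C (1.03 CPM), SEMA7A (1.22 CPM) and EPHB1 (1.64 CPM), and just outside it PLXNA4 (0.98 CPM), EPHA6 (0.924 CPM) and EPHA8 (0.884 CPM).

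Rh41 is an established human cell line from alveolar rhabdomyosarcoma, a childhood cancer whose cells resemble muscle precursors, and carries the PAX3-FOXO1 fusion. One group of 4 libraries is labelled CTR (control) and one of 4 siG9a. G9a, encoded by EHMT2, is a histone H3 lysine 9 methyltransferase. Both groups share the line and its fusion, so every result is from 1 tumour line. The sample labels write siG9a and the series title shG9a, and the control reagent, the dose and the time after knockdown are not given in the sources used here. Libraries were made with QuantSeq, which reads the 3′ ends of poly(A) transcripts, so the CPM of a gene does not scale with transcript length. Levels of different genes are set side by side on that ground. Other differences between genes in how fully their reads were counted were not tested. The labels do not say whether the replicates came from separate cultures on separate days, beyond calling them biological replicates. P-values measure the spread between these libraries.

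As background, guidance molecules steer growing axons and migrating cells by attraction or repulsion through the actin cytoskeleton. Secreted class 3 semaphorins bind neuropilins, which signal together with plexins, while membrane-bound semaphorins bind plexins directly. Ephrins are held in the membrane and bind Eph receptor tyrosine kinases on neighbouring cells, with signals in both directions. SLITs repel through ROBO receptors, and netrins act through DCC, neogenin and UNC5 receptors. In skeletal muscle and its precursors, members of these families take part in cell migration, boundary formation and innervation.

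Sequences before the starts of guidance genes differ in how densely they carry CG dinucleotides, the sites of DNA methylation. The windows below show that contrast among members that fell with the knockdown in the paired fit described further on. They are the 250 bases before 1 RefSeq start per gene (GRCh38.p14), 5′ to 3′ on the gene's strand, with every CG in capitals. A gene can have other starts, also far from this one, and which start these cells use was not tested. Windows are given for those of these members whose RefSeq start lies near the start of a GENCODE release 29 transcript.
EPHB2, chr1:22710588-22710837, plus strand: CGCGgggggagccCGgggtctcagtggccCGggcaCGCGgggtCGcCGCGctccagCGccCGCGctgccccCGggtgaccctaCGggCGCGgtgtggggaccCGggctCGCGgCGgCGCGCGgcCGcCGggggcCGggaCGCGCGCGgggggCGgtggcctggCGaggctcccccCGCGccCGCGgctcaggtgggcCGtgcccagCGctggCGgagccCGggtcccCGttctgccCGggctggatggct
NRP2, chr2:205682251-205682500, plus strand: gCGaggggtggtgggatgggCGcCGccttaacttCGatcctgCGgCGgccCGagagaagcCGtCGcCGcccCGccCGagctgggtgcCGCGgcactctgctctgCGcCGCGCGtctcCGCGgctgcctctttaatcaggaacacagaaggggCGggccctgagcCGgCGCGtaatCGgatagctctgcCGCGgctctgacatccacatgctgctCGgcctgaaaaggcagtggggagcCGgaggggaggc
PLXNC1, chr12:94262369-94262618, plus strand: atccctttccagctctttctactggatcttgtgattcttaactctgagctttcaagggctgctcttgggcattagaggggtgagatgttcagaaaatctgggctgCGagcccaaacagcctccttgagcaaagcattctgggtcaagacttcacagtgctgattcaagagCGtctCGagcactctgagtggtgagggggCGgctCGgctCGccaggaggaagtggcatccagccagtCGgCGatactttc
SEMA3C, chr7:80922390-80922639, minus strand: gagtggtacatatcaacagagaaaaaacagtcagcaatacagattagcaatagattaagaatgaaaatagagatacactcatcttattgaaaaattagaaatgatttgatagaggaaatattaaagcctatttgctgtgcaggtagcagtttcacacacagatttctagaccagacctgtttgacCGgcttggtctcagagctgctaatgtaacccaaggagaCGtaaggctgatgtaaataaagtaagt

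The EPHB2 window held 42 CG and the NRP2 window 29, where that of PLXNC1 held 8 and that of SEMA3C 2. Over 35116 RefSeq windows of this length the median was 11 CG, with quartiles of 3 and 23. RefSeq gave a window for 45 of the 52 members tested and for 9 of the 12 called in the paired fit, whose CG counts ran from 2 to 42 with a median of 13 (17 over the 45 members). At the 1 start taken per gene, which may not be its main one, members that fell had windows from the CG-poor to the CG-rich end. Of the letters searched on both strands, GGGCGG was in 6 of the 9 windows of called members (42.6% of all windows hold it), CAGGTG in 1 (17.5% of all), and CAGCTG and TATAAA in 0 (14% and 10.7% of all). GGGCGG was in a larger share of the windows of members not called than of those called. These counts describe the letters in 1 window per gene.

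Some properties of the whole series touch the results. Libraries held 1458825 to 1938665 reads, so 1 read was worth 0.516 to 0.685 CPM and 3 reads, the floor used here, 1.55 to 2.06 CPM. Intervals and floors cover counting error only. EHMT2 measured 57.6 to 88.3 CPM in control and 19.6 to 58.5 CPM in siG9a, lower in 4 of 4 pairs of libraries with the same replicate number. Its log2 change was −1.10 ± 0.31 (SE, n = 4 per group) with a limma adjusted p of 0.191 without the replicate number as a block and 0.000472 with it. Of the 12 rhabdomyosarcoma markers, all 12 reached 1 CPM, and their summed level was 3109 to 3314 CPM in control replicates 1, 2 and 4 but 576 CPM in control replicate 3. In siG9a it was 2048, 1652 and 2593 CPM in replicates 1, 2 and 4 and 582 CPM in replicate 3. MYOD1, DES and MYOG were detected in both groups, MYOG with only 2 reads in each of siG9a replicates 2 and 3. Of 12 neuronal markers 5 reached 1 CPM, and TH was at 0 in every library. Their sum, nearly all from the neurofilament genes NEFM and NEFL, was 199.5, 1832, 9621 and 2064 CPM in control replicates 1 to 4 and 238, 2964, 8937 and 1924 CPM in siG9a. Both replicate 3 libraries therefore stood apart, low in rhabdomyosarcoma markers and high in neurofilament genes. Counts of called members are given with and without them, and values of single genes without them only for some members. The replicate 1 libraries stood apart too, with the lowest neuronal sum and the highest share of mitochondrial transcripts (9.18% and 13.7%) in each group. The part of these libraries in the results below was not tested beyond fits that leave out a replicate number. The sum of 8 epithelial markers was 10.3 to 76.9 CPM in control and 25.8 to 44.5 CPM in siG9a, with 4 of 8 at 1 CPM or more. The sum of 9 fibroblast markers, 6 of them at 1 CPM or more, was 118.7 to 410 CPM in control and 52.5 to 329 CPM in siG9a. Of 6 endothelial markers 5 matched and 0 reached 1 CPM, and CDH5, CLDN5 and KDR were at 0. The paired fit called CDH1 of the epithelial and COL1A1 of the fibroblast markers, both lower. Mitochondrial transcripts took 4.59% to 9.18% of the reads of a control library and 5.21% to 13.7% of a siG9a library, higher in siG9a in 4 of 4 pairs, and their part in the results was not tested.

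**Figure D1:**
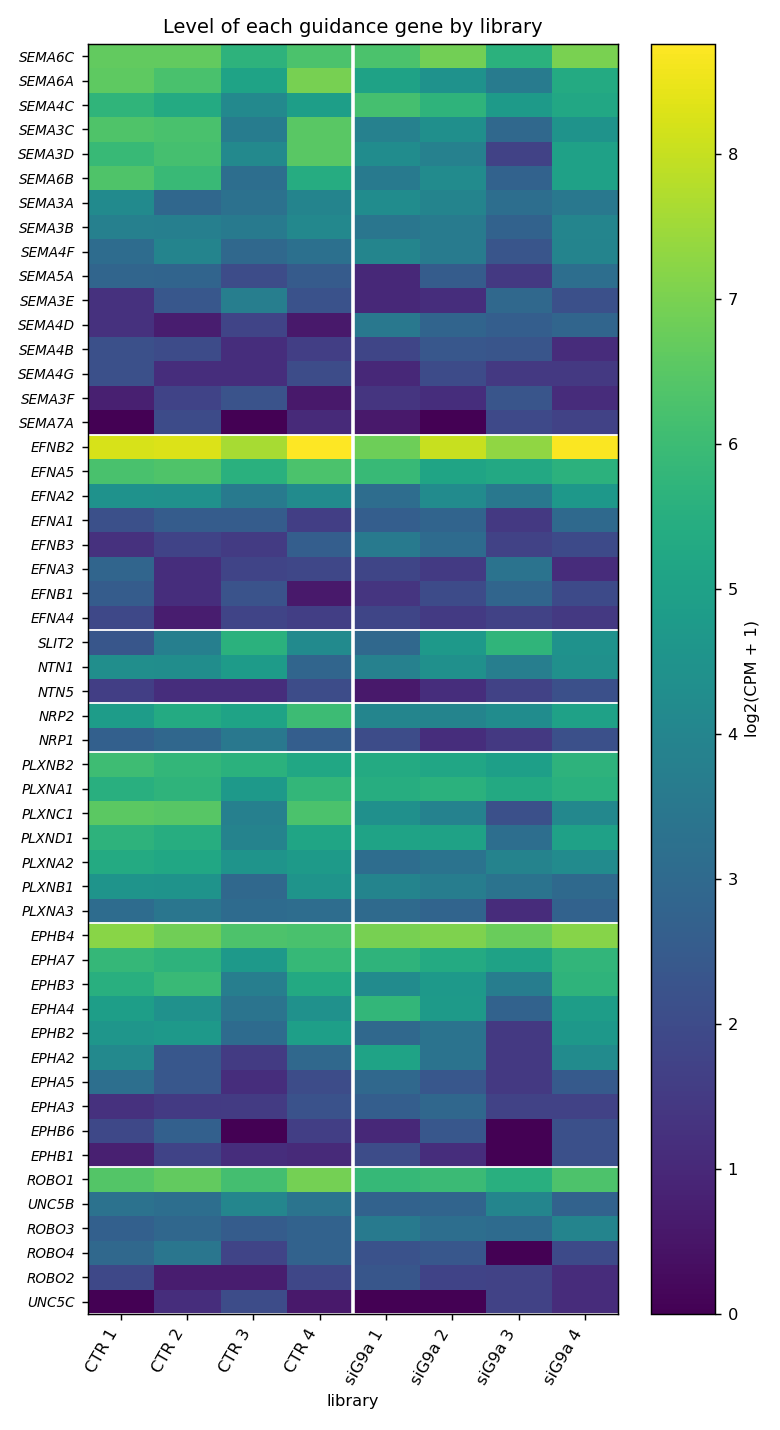
Level of each of the 52 guidance genes tested in the 8 libraries, as log2(CPM + 1); rows are genes in families separated by white lines and ordered by mean level, columns are libraries, and the vertical white line parts control from siG9a. EFNB2 is the brightest row (mean 272 CPM), and both replicate 3 columns are darker than their neighbours for 22 of the 52 genes.

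The guidance genes with the highest mean level over the 8 libraries were the ligand EFNB2 (272 CPM), the receptor EPHB4 (115.8 CPM), the ligand SEMA6C (86.4 CPM), the receptor ROBO1 (76.9 CPM) and the ligand EFNA5 (56.9 CPM). In all, 28 of the 68 members had a mean of at least 10 CPM. EPHA10, NTN3, PLXNB3 and SLIT1 were at 0 in every library. The other 12 members under the threshold had means from 0.065 CPM (UNC5A) to 0.98 CPM (PLXNA4). Among the SLITs, only SLIT2 reached the threshold. EPHB4 and SEMA6C, next to each other in this order, had control means of 104.2 ± 33.8 and 81.2 ± 24.2 CPM (SD, n = 4), a difference within their spread.

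The question was which guidance transcripts differed between siG9a and control libraries. The main test, limma without the replicate number, called 0 of the 52 members and 0 of 15092 genes. In the paired fit described next, 4 of 16 semaphorins tested fell (SEMA3C, SEMA3D, SEMA6A and SEMA6B) and 1 rose (SEMA4D), and among their receptors 2 of 2 neuropilins (NRP1 and NRP2) and 2 of 7 plexins (PLXNA2 and PLXNC1) fell. EPHB2, EFNA5 and ROBO1 also fell in that fit, which called 6.52% of all genes tested lower and 4.86% higher. The means of the members that fell were 19.8% (PLXNC1) to 64.8% (ROBO1) of control. In bulk samples, fewer cells that make a transcript and less of it per cell cannot be told apart.

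Without a block, limma on log2(CPM + 1) called 0 of the 52 members at an adjusted p under 0.05, as it called 0 of 15092 genes (0%). With no filter on low values limma called 0 of 64 members and 0.0695% of all genes. The smallest adjusted p of a member was 0.117, and 10 members had an unadjusted p under 0.05 (12.5% of all genes did). On reads recovered from the CPM, edgeR without the block also called 0 members (0% of all genes), and DESeq2 without it called 5 (9.62% of the 52, where it called 2.28% of the genes to which it gave an adjusted p): PLXNA2, PLXNC1, SEMA3C, SEMA4D and SEMA6A. With the replicate number as a block, termed the paired fit here (the fit without it is the unpaired one), limma called 12 members (23.1%), 11 lower and 1 higher. Over all genes the paired fit called 11.4%, 6.52% lower and 4.86% higher. All 12 moved the same way in 4 of 4 pairs. With the block, edgeR called 11 members (11.3% of all genes) and DESeq2 9 (10.2% of the genes with an adjusted p). Among the 31 members that averaged 5 CPM or more, the paired fit on such genes alone called 10 (32.3%), against 15.2% of all such genes. The median log2 change over the 52 members was −0.12, against 0.01 over all genes tested, with 28 members below 0 and 24 above. Among genes averaging 5 CPM or more it was −0.39 over the 31 members, again against 0.01 over all genes. By pair the members' median was −0.39, −0.29, −0.10 and −0.12 for replicates 1 to 4.

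Without both replicate 3 libraries and without a block, limma called 7 members (13.5%), PLXNA2, PLXNC1, SEMA3C, SEMA3D, SEMA4D, SEMA6A and SEMA6B, against 2.74% of all genes. The same 7 were called when only control replicate 3 was left out, against 1.99% of all genes. The paired fit without replicate 3 called 9 (17.3%, against 7.14% of all genes): these 7, NRP2 and EPHB2. Paired fits without replicate 1, 2 or 4 called 8, 5 and 12 members, against 6.3%, 4.43% and 9.23% of all genes, and PLXNC1, SEMA3C, SEMA3D, SEMA4D and SEMA6A were called in each of the 4. The 12 called without replicate 4 included EFNB2 and not EFNA5, and shared 11 members with the 12 called on all libraries. A paired fit at a pseudocount of 0.1 called 10 (9.03% of all genes). The unpaired fit without siG9a replicate 4 called 0 members and 0.0133% of all genes.

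**Figure D2:**
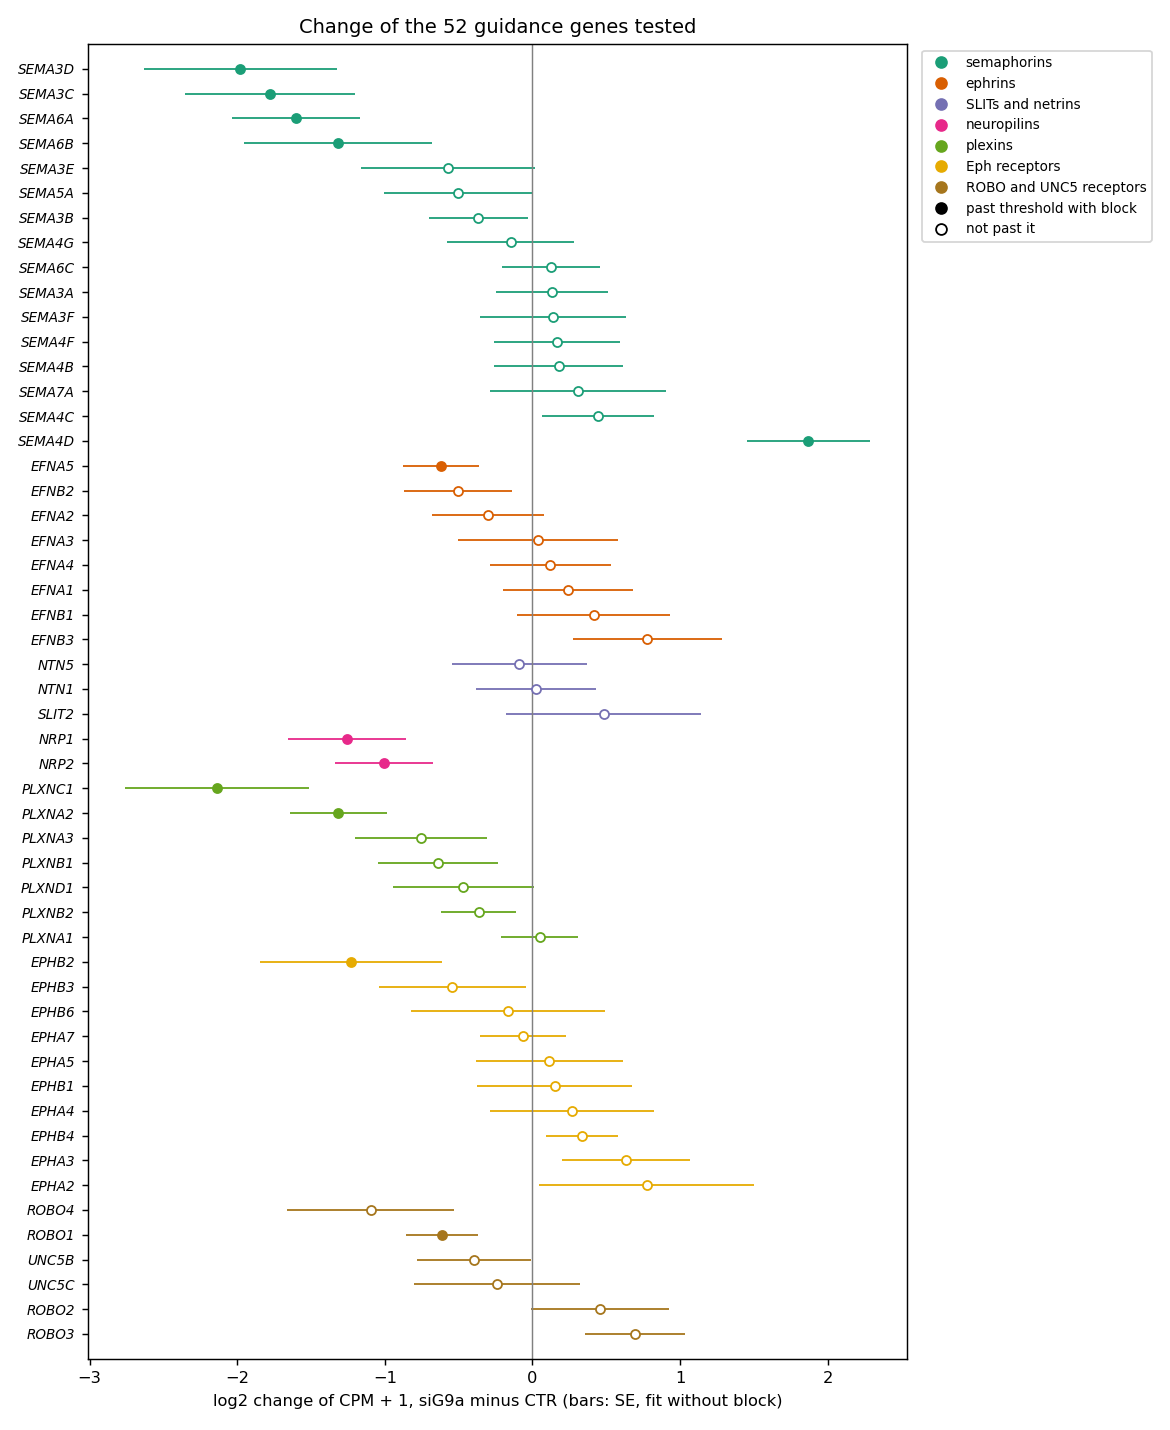
Log2 change of CPM + 1 (siG9a minus CTR) for the 52 guidance genes tested, by family; points are estimates over 4 libraries per group, bars are the SE of the fit without the block, and filled points passed the threshold in the paired fit. The filled points lie below 0 for 11 genes, from PLXNC1 at −2.14 to ROBO1 at −0.61, and above 0 for SEMA4D at 1.87.

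Semaphorins were the largest family, with 16 of 20 members tested. In the paired fit 4 of the 16 fell and 1 rose (6.52% and 4.86% of all genes), and their median log2 change was −0.01. SEMA3C is a secreted semaphorin known for its role in cell migration in the developing heart and in tumours. It measured 80.9, 75.3, 11.7 and 90.3 CPM in control replicates 1 to 4 and 13.4, 19.4, 6.85 and 21.8 CPM in siG9a. All siG9a libraries were below the control libraries of replicates 1, 2 and 4, and the groups overlapped only through the low control replicate 3. The log2 change was −1.78 ± 0.25 (SE of the paired fit, n = 4 per group), and limma gave an adjusted p of 4.96e-05 paired and 0.245 unpaired. Without replicate 3 it was −2.14, and the adjusted p of the unpaired fit was 0.000365.

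SEMA3D, another secreted class 3 semaphorin, measured 58.95, 71.7, 16.6 and 90.3 CPM in control and 18.05, 13.3, 2.28 and 31.5 CPM in siG9a. The lowest value, siG9a replicate 3, rested on 4 reads (95% Wilson interval 0.888 to 5.87 CPM). Here too control replicate 3 was the single control library inside the siG9a range. The log2 change was −1.98 ± 0.24 (SE of the paired fit, as for the members below unless stated). Limma gave an adjusted p of 4.36e-06 paired and 0.256 unpaired. Across pairs siG9a was at 30.6%, 18.6%, 13.7% and 34.9% of the control library of the same number.

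SEMA6A and SEMA6B are transmembrane semaphorins that bind class A plexins. SEMA6A measured 94.6, 75.35, 33.2 and 123.6 CPM in control and 32.0, 21.2, 11.4 and 39.6 CPM in siG9a. The ratio was close to even across pairs, 33.8%, 28.1%, 34.4% and 32.0% of control, although the level differed between replicate numbers. Its log2 change was −1.60 ± 0.19 (SE), and limma gave an adjusted p of 4.36e-06 paired and 0.178 unpaired. SEMA6B measured 79.5, 60.8, 7.99 and 41.5 CPM in control and 11.35, 17.55, 5.71 and 30.97 CPM in siG9a. Its decrease was uneven, to 14.3% and 28.9% of control in replicates 1 and 2 but to 71.5% and 74.6% in replicates 3 and 4. The log2 change was −1.32 ± 0.30 (SE), and limma gave an adjusted p of 0.00471 paired and 0.426 unpaired. Paired fits without replicate number 1 or 2 did not call SEMA6B (largest limma adjusted p 0.0901). SEMA6C, the remaining class 6 member tested and the highest semaphorin, did not pass either fit. It measured 100.1, 99.65, 49.2 and 75.8 CPM in control and 75.8, 116.8, 47.4 and 126.7 CPM in siG9a, with 2 pairs lower and 2 higher and an adjusted p of 0.716 in the paired fit. A difference between SEMA6C and the other 2 class 6 members was not tested. SEMA6A overlaps antisense genes in GENCODE release 29, so its value is uncertain if the counting ignored strand, which the sources used here do not give.

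SEMA4D, a transmembrane semaphorin that binds plexin B1 and is also known as CD100, was the one member that rose in the paired fit. It measured 1.37, 0.61, 2.46 and 0.52 CPM in control and 10.3, 6.05, 5.14 and 6.31 CPM in siG9a, so the groups did not overlap. The control values rested on 8 reads in all and 1 control library was above 3 reads, where siG9a held 50 reads with 4 of 4 libraries above 3. The ratio of pooled rates was 5.87 (95% exact interval 2.76 to 14.3, counting error only). On the log2(CPM + 1) scale the change was 1.87 ± 0.42 (SE), and limma gave an adjusted p of 0.00441 paired and 0.117 unpaired. DESeq2 with the block gave it no adjusted p. SEMA4C, the highest class 4 member, had means of 34.5 ± 15.2 and 46.5 ± 19.6 CPM (SD, n = 4) in control and siG9a, higher in 4 of 4 pairs, and the adjusted p of the paired fit was 0.151. The other 9 semaphorins tested had mean levels of 1.22 to 12.2 CPM, log2 changes between −0.57 (SEMA3E) and 0.31 (SEMA7A), and no call in either fit. SEMA3A, the prototype repellent of the class, was among them, with a control mean of 11.7 ± 4.91 CPM and a siG9a mean of 12.7 ± 4.47 CPM (SD, n = 4).

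**Figure D3:**
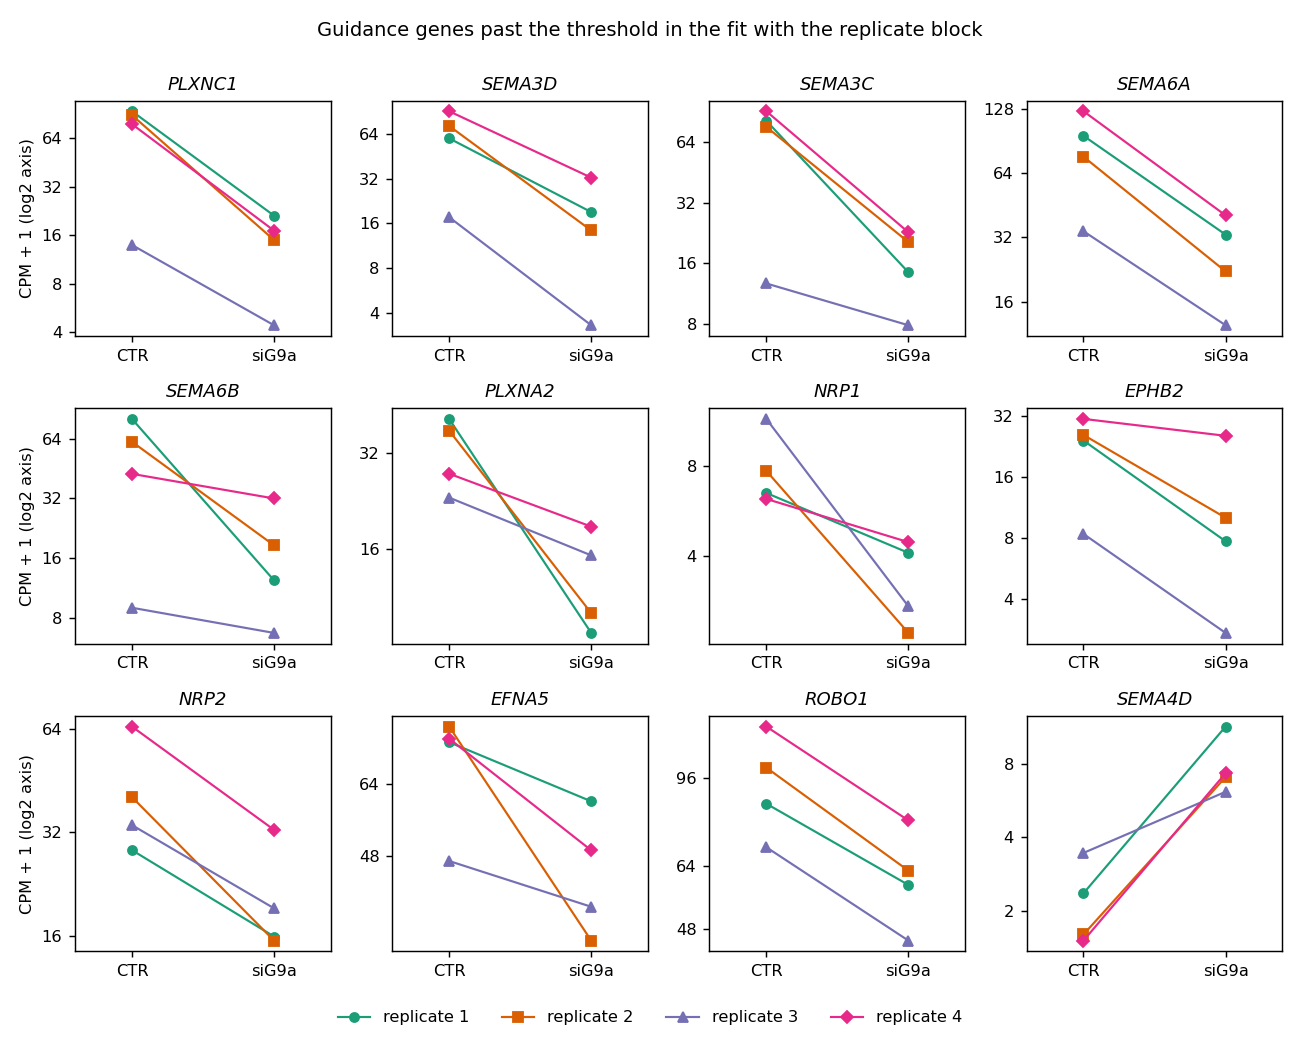
CPM + 1 on a log2 axis in control and siG9a for the 12 guidance genes past the threshold in the paired fit; each line joins the 2 libraries of 1 replicate number. All 4 lines fall in 11 panels and rise for SEMA4D, and replicate 3 lies below the other numbers in both groups for PLXNC1, SEMA3C, SEMA3D, SEMA6A, SEMA6B, EPHB2 and ROBO1.

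Both neuropilins, the ligand-binding co-receptors of class 3 semaphorins, fell in the paired fit (6.52% of all genes did). NRP2 measured 27.4, 39.5, 32.6 and 63.9 CPM in control and 14.96, 14.5, 18.3 and 31.5 CPM in siG9a. The groups overlapped at 1 point, where siG9a replicate 4 lay above control replicate 1. Its log2 change was −1.003 ± 0.22 (SE), and limma gave an adjusted p of 0.00347 paired and 0.254 unpaired. The paired fit without replicate number 2 did not call it (limma adjusted p of 0.0573). Across pairs siG9a was at 36.8% to 56.1% of control. NRP1, which is also a co-receptor for vascular endothelial growth factor, was much lower in level, at 5.48, 6.68, 10.45 and 5.19 CPM in control and 3.09, 1.21, 1.71 and 3.44 CPM in siG9a. These groups did not overlap, but 2 of the siG9a libraries were at 3 reads or fewer. In pooled reads NRP1 went from 46 to 17, a ratio of rates of 0.347 (95% exact interval 0.187 to 0.617). NRP1 had a log2 change of −1.25 ± 0.41 (SE), and its adjusted p from limma was 0.0468 paired and 0.238 unpaired, and edgeR with the block gave an adjusted p of 0.0608. Without replicate 3 the limma adjusted p with the block was 0.229. Genes on the other strand overlap NRP1 and NRP2 in GENCODE release 29.

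Plexins, the signalling receptors of semaphorins, had 7 of 9 members tested and a median log2 change of −0.64. The paired fit called 2, both lower (6.52% of all genes were called lower). PLXNC1, known as a receptor of SEMA7A, had the most negative log2 change of the 52 members. By the ratio of group means, SEMA4D moved further upward (5.61-fold) than PLXNC1 downward (to 19.8% of control). It measured 92.5, 87.5, 12.9 and 76.85 CPM in control and 20.1, 13.9, 3.43 and 16.1 CPM in siG9a. Every siG9a library was at 15.9% to 26.6% of its control partner, and the overlap of the groups came from control replicate 3 alone, which rested on 21 reads (95% Wilson interval 8.45 to 19.7 CPM). The log2 change was −2.14 ± 0.23 (SE), and limma gave an adjusted p of 1.11e-06 paired and 0.209 unpaired. Without replicate 3 it was −2.30, and the adjusted p of the unpaired fit was 0.00012. CEP83 overlaps PLXNC1 on the other strand in GENCODE release 29. SEMA7A itself was near the threshold, with a control mean of 1.02 ± 1.43 CPM and a siG9a mean of 1.415 ± 1.37 CPM (SD, n = 4).

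PLXNA2, a receptor of class 6 semaphorins that also pairs with neuropilins, measured 39.8, 36.5, 22.1 and 26.5 CPM in control and 7.74, 9.08, 14.3 and 17.8 CPM in siG9a. The groups did not overlap, and the decrease was larger in replicates 1 and 2 (to 19.5% and 24.9% of control) than in replicates 3 and 4 (64.5% and 67.2%). Its log2 change was −1.32 ± 0.29 (SE), and limma gave an adjusted p of 0.00328 paired and 0.141 unpaired. The paired fit without replicate number 2 did not call it (limma adjusted p of 0.0605). PLXNA3, a class A plexin of lower level, also had groups that did not overlap, at 7.54, 9.72, 7.38 and 7.79 CPM in control and 7.22, 6.05, 1.14 and 5.74 CPM in siG9a. Its limma adjusted p was 0.217 with the block, and LAGE3 overlaps it on the other strand. PLXNB2 and PLXNA1, the highest plexins, passed neither fit. PLXNB2 measured 64.4, 54.1, 46.7 and 36.35 CPM in control and 39.7, 35.7, 29.7 and 49.9 CPM in siG9a, lower in 3 of 4 pairs. PLXNA1 measured 44.6, 50.4, 25.8 and 55.04 CPM in control and 43.3, 47.8, 38.8 and 45.9 CPM in siG9a, with group means of 44.0 ± 12.8 and 44.0 ± 3.89 CPM (SD, n = 4). PLXNB1, the receptor of SEMA4D, had means of 18.2 ± 7.65 and 10.6 ± 3.32 CPM (SD, n = 4), and the adjusted p of the paired fit was 0.195. PLXND1 had means of 35.2 and 26.0 CPM and an adjusted p of 0.177 in the paired fit.

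Summed over all 20 symbols, semaphorins held 521.7, 478, 188 and 506 CPM in control and 285, 299.6, 144 and 352 CPM in siG9a. Plexins held 321.5, 308, 135.9 and 260.1 CPM in control and 165.6, 156.8, 105 and 173 CPM in siG9a. Both sums were lower in 4 of 4 pairs, at 54.7% to 76.8% and at 50.9% to 77.3% of control, and both were lowest in replicate 3 in each group. The sums of neuropilins (34.1% to 54.9% of control), of ROBO and UNC5 receptors (65.5% to 75.7%) and of ephrins (49.5% to 93.2%) were also lower in 4 of 4 pairs, while those of Eph receptors (90.2% to 140.2%) and of SLITs and netrins (80.9% to 169.9%) went both ways. A sum follows its most abundant members. EFNB2 had a control mean of 308.5 of the 409.4 CPM of ephrins, whose median log2 change was 0.08. ROBO1 had 93.3 of the 118.8 CPM of ROBO and UNC5 receptors in control. Some rhabdomyosarcoma markers moved with the groups as well. The paired fit called 6 of the 12 lower (50%, against 11.4% of all genes) and none higher. These were DES, CDH15, IGF2, TFAP2B, FGFR4 and NCAM1, of which IGF2 was lower in 3 of 4 pairs. The others went both ways in log2 change, from −0.65 (MYOG) to 0.65 (MYCN), with MYOD1 at −0.03 and PAX3 at −0.08. The part of these markers in the semaphorin and plexin results was not tested.

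Ephrins had 8 of 8 members tested, and 1 fell in the paired fit (6.52% of all genes did). EFNA5 is a glycolipid-anchored ephrin that binds EphA receptors. It measured 74.7, 79.6, 46.1 and 75.8 CPM in control and 58.8, 33.3, 38.25 and 48.2 CPM in siG9a, with overlap through control replicate 3. Its log2 change was −0.62 ± 0.19 (SE), and limma gave an adjusted p of 0.035 paired and 0.358 unpaired. No paired fit without one of the 4 replicate numbers kept this call, and the limma adjusted p ran from 0.051 to 0.318. EFNB2, a transmembrane ephrin and the most abundant member of all, measured 295, 313, 193.7 and 432 CPM in control and 113.5, 261, 155.3 and 413 CPM in siG9a. It was lower in 4 of 4 pairs, at 38.4% of control in replicate 1 and 95.6% in replicate 4, and the adjusted p of the paired fit was 0.056. Without replicate 4 its log2 change was −0.65 with an adjusted p of 0.0327 in the paired fit, and without replicate 1 it was −0.215 with an adjusted p of 0.478. The other 6 ephrins had mean levels of 2.04 to 16.4 CPM and log2 changes between −0.30 (EFNA2) and 0.78 (EFNB3), with no call.

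Eph receptors had 10 of 14 members tested, with a median log2 change of 0.13, and 1 fell in the paired fit (6.52% of all genes did). EPHB2, a receptor of B-class ephrins, measured 23.3, 24.9, 7.38 and 30.1 CPM in control and 6.71, 9.08, 1.71 and 24.7 CPM in siG9a. The libraries of siG9a replicates 2 and 4 were within the control range. Replicate 4 was at 81.9% of its partner, while replicates 1 and 2 were at 28.8% and 36.5% and siG9a replicate 3 rested on 3 reads. The log2 change was −1.23 ± 0.31 (SE), and limma gave an adjusted p of 0.00945 paired and 0.443 unpaired. Paired fits without replicate number 1 or 2 did not call it (limma adjusted p of 0.0612 and 0.0752). EPHB4, the main receptor of EFNB2 and the highest receptor in these libraries, measured 146.7, 116.1, 78.7 and 75.3 CPM in control and 124.8, 134.4, 106.8 and 143.4 CPM in siG9a. It was lower in 1 pair and higher in 3, and the adjusted p of the paired fit was 0.227. SLC12A9 overlaps EPHB4 on the other strand, and MIR4253 overlaps EPHB2 on the other strand. EPHA7 measured 56.2, 49.2, 25.8 and 57.6 CPM in control and 51.1, 39.95, 32.0 and 52.8 CPM in siG9a, and the adjusted p of the paired fit was 0.876. Of the others, EPHA2 had the largest positive log2 estimate, 0.77 ± 0.73 (SE without the block), with means of 7.32 ± 6.41 and 15.3 ± 13.2 CPM (SD, n = 4), and the adjusted p of the paired fit was 0.153. EPHB3 had the most negative estimate among them, −0.54, and the adjusted p of the paired fit was 0.183.

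SLITs and netrins had 3 of 7 members tested and 0 called in the paired fit (11.4% of all genes were). SLIT2, a secreted ligand of ROBO receptors, measured 4.11, 12.8, 47.35 and 17.1 CPM in control and 6.71, 24.8, 51.95 and 21.2 CPM in siG9a. In each group replicate 1 was lowest and replicate 3 highest, as for the neuronal marker sum, and the groups overlapped. It was higher in siG9a in 4 of 4 pairs, at 109.7% to 194.5% of control, and the adjusted p of the paired fit was 0.243. NTN1, the founding vertebrate netrin, measured 19.2, 18.8, 27.1 and 6.23 CPM in control and 13.4, 19.97, 12.6 and 20.1 CPM in siG9a, with 2 pairs lower and 2 higher.

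ROBO1, the SLIT receptor of highest level, fell evenly in the paired fit. It measured 84.3, 99.65, 68.9 and 120.5 CPM in control and 57.8, 61.7, 44.5 and 78.0 CPM in siG9a, which is 68.5%, 62.0%, 64.7% and 64.8% of the control library of the same number. The groups overlapped through control replicate 3. Its log2 change was −0.61 ± 0.16 (SE), and limma gave an adjusted p of 0.015 paired and 0.338 unpaired. Paired fits without replicate number 2 or 3 did not call it (limma adjusted p of 0.103 and 0.0625). ROBO3, a divergent member of the family, passed neither fit and measured 5.48, 6.68, 4.92 and 5.71 CPM in control and 10.8, 7.87, 7.42 and 14.3 CPM in siG9a. Its siG9a libraries were all above the control libraries, and its limma adjusted p was 0.2 with the block. ROBO4, the ROBO receptor of endothelial cells, had means of 6.185 ± 3.002 and 2.68 ± 1.87 CPM (SD, n = 4) and an adjusted p of 0.0785 in the paired fit. UNC5B, a netrin receptor, measured 8.91, 7.90, 15.4 and 9.35 CPM in control and 5.67, 6.05, 14.8 and 5.74 CPM in siG9a, with both replicate 3 libraries highest. It was lower in 4 of 4 pairs, and the adjusted p of the paired fit was 0.483.

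In all, 5 of the 52 members had groups without overlap: NRP1, PLXNA2 and PLXNA3 lower, and SEMA4D and ROBO3 higher. Over all genes tested this held for 7.32% (3.45% lower, 3.88% higher). Without control replicate 3 the count was 15 (28.8% of the 52, against 17.3% of all genes), and without replicate 3 in both groups it was 17 (32.7%, against 22% of all genes). Without siG9a replicate 4 it was 8 (11.3% of all genes), without replicate 4 in both groups 10 (14.1%), and among genes averaging 5 CPM or more 3 of 31 (8.43% of all such genes). A smaller number of libraries makes separation easier for any gene. An exact two-sided permutation test of each of these 5 gives 0.0286, the smallest p that 4 against 4 allows. Any gene without overlap gets this value, so the test adds nothing to the separation itself. A lower value in 4 of 4 pairs was seen for 18 members (15.3% of all genes) and a higher one for 4 (14.9% of all genes).

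**Figure D4:**
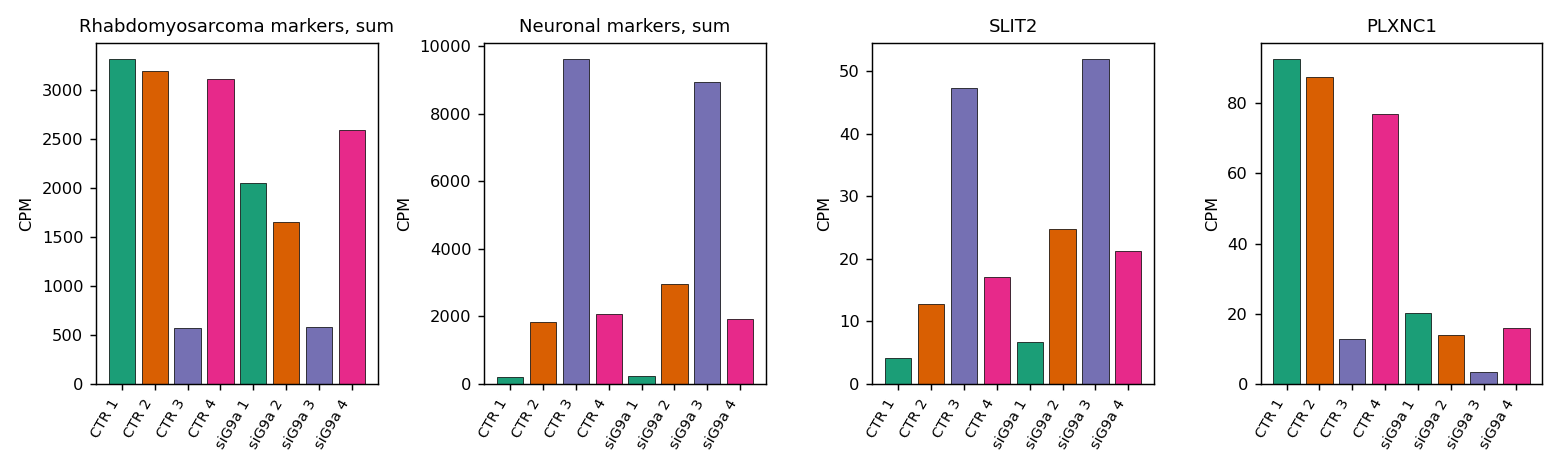
Level in CPM in each of the 8 libraries of the summed rhabdomyosarcoma markers, the summed neuronal markers, SLIT2 and PLXNC1; colours mark the replicate number. Both replicate 3 libraries are low in the marker sum at the left and in PLXNC1 and high in the neuronal sum and SLIT2, with SLIT2 at 47.35 and 51.95 CPM there.

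Replicate 3 was the lowest library in both groups for 22 of the 52 members (42.3%), against 19.8% of all genes tested, and for 7 of the 12 called members. It was the highest in both groups for 5 members, SEMA3E, SEMA3F, SLIT2, UNC5B and UNC5C, where 20.1% of all genes were.

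Guidance genes outside the families above were counted from a list of 19 adhesion proteins, ligands and receptors. Of these, 12 were tested and the paired fit called 4 (33.3%, against 11.4% of all genes), all lower, where the fit without the block called 0. DRAXIN, a secreted repellent that binds DCC, went from 112.6 ± 61.8 to 55.6 ± 47.8 CPM, and NTNG2, a membrane-anchored netrin relative, from 38.6 ± 23.6 to 16.98 ± 10.75 CPM (SD, n = 4). Paired, limma gave them adjusted p-values of 0.00132 and 0.00465. NRCAM and NCAM1, adhesion molecules of the immunoglobulin superfamily, were called with log2 changes of −1.14 and −0.57. The netrin receptor DCC was at 0 in every library, and neogenin (NEO1) had means of 12.4 and 15.6 CPM and the adjusted p of the paired fit was 0.426.

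Cytosolic mediators of guidance signals were counted from a list of 50 genes, of which 44 were tested. The paired fit called 9 (20.5%, against 11.4% of all genes), 8 lower and 1 higher, and the fit without the block 0. The 5 with the largest change were CFL1, ABLIM1, ENAH, SRGAP1 and DPYSL3, all lower, and the one that rose was RHOA, a small GTPase of the actin cytoskeleton, at a log2 change of 0.49. CFL1, which encodes the actin-severing protein cofilin, had a log2 change of −1.08, from 385 ± 30.2 to 184.7 ± 43.8 CPM (SD, n = 4), and the groups did not overlap; limma gave adjusted p-values of 2.4e-05 paired and 0.0897 unpaired. ENAH, an Ena/VASP protein at the ends of growing actin filaments, went from 687 ± 175.8 to 385 ± 144.2 CPM, and the actin-binding ABLIM1 had a log2 change of −1.03. SRGAP1, a GTPase-activating protein that acts below SLIT and ROBO, had a log2 change of −0.76, and the semaphorin mediator DPYSL3 one of −0.76 as well.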

How the data were processed

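RNA from 8 Rh41 libraries (4 CTR, 4 siG9a) was read with QuantSeq on a NextSeq500, per the labels' protocols. The submitters' processing notes name FastQC 0.11.8, Trim Galore, STAR 2.5.0a, HTSeq 0.8.0, edgeR 3.28 and the builds GRCh38 and hg19, without roles; the strand setting, the annotation and any read filter are not given in the sources used here, so no coordinates of the counted genes are given. The deposited table holds CPM to 2 decimals, scaled by the authors to the reads assigned to genes. In each library 100% of non-zero values were whole multiples of 1 read (within 0.05 read), so whole reads were recovered.

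The main test was limma 3.58.1 (R 4.3.3) on log2(CPM + 1), fitted by lmFit with trended eBayes (two-sided) over genes averaging 1 CPM or more, Benjamini-Hochberg adjusted over all 15092, threshold 0.05. The pseudocount makes changes of low genes look smaller. The paired fit adds the replicate number. The labels do not say what the number marks, so the main test left it out. Deviations from group means correlated, across genes, at 0.50, 0.104, 0.673 and 0.13 between libraries of the same number, taken from the sample titles. On this ground, from the same data, the numbers were taken as pairing the libraries. The correlation was low for numbers 2 and 4, and control replicate 2 correlated more with siG9a replicate 4 (0.144). Alternatives used edgeR 4.0.16 and DESeq2 1.42.0 on recovered reads, other pseudocounts, filters and scalings, and left-out libraries. Values of every library are given for members called in either fit, without overlap, or among the 2 highest of 7 families. The members and lists were chosen with earlier results of these data known. The fitting scripts were tested on simulated data.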

Additional observations from a re-analysis of the deposited data

Results flagged for a closer look

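The library at either end of a group of 4 was set against the others by Dixon's ratio for EHMT2, the 23 members given by library and the mitochondrial share. Of 50 groups, 2 passed the 95% critical value, where chance gives about 2.5. UNC5B was at 14.84 CPM in siG9a replicate 3, above the other siG9a libraries (5.67 to 6.05 CPM). EFNA5 was at 46.12 CPM in control replicate 3, below the other control libraries (74.7 to 79.6 CPM). Both are replicate 3 libraries.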

How the results depend on the processing

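The replicate block moved the members' count most: 0 without it, 12 with it in limma, 11 with it in edgeR and 9 with it in DESeq2, which without it called 5. On all 8 libraries the block changed the limma call of no member beyond these 12, and without number 4 it also changed that of EFNB2. With the block, a pseudocount of 0.1 or the filter at 5 CPM gave 10, and a pseudocount of 5, TMM and median-ratio scaling gave 12 each. The combinations of block with scaling, pseudocount or filter were chosen after seeing the data. With the block and one replicate number left out, 8, 5, 9 and 12 members were called (numbers 1 to 4). Without the block, leaving out single libraries or numbers gave 0 to 7, the 7 only without control replicate 3 or number 3. Members without overlap ran from 5 to 17 over left-out libraries and numbers (15 without control replicate 3, 17 without number 3, 10 without number 4, 8 without siG9a replicate 4; over all genes 17.3%, 22%, 14.1% and 11.3% in that order) and were 3 at a mean of at least 5 CPM, where the members' median log2 change was −0.393 in both fits (0.0134 over all genes).

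With the block, EHMT2 passed the threshold at log2 changes of −1.12 (DESeq2), −1.10 (edgeR, limma, limma with TMM, limma on genes averaging 5 CPM or more), −1.11 (median-ratio scaling), −1.12 (pseudocount 0.1) and −1.01 (pseudocount 5), and without replicate numbers 1 to 4 at −0.965, −1.16, −1.01 and −1.27. Other guidance genes called with the block numbered 4 (limma, also with TMM, median-ratio scaling, pseudocount 5 or a mean of at least 5 CPM) and 3 (edgeR, DESeq2, pseudocount 0.1), and 2, 1, 4 and 3 without numbers 1 to 4. Mediators called with the block numbered 9 in limma under each scaling, pseudocount and filter run and in edgeR, and 7 in DESeq2, and 3, 4, 6 and 9 without numbers 1 to 4. Without the block they numbered 1 in DESeq2, 1 without control replicate 3 and 2 without number 3.

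Of the members described by library, 5 that passed no test changed sign, and the cause was not tested. NTN1 was at −0.136 and −0.0216 in DESeq2 without and with the block, −0.118 and −0.0388 in edgeR, −0.00925 at a pseudocount of 5 in both limma fits, −0.485 without number 4 and −0.386 to 0.266 over single left-out libraries. PLXNA1 was at −0.00543 in DESeq2 and −0.00231 in edgeR without the block, −0.124 without number 3 and −0.181 to 0.173 over single libraries. EPHA7 was at 0.012 without number 2 and −0.325 to 0.0752 over single libraries. SEMA6C was at −0.0738 without number 4 and −0.0909 to 0.407 over single libraries. SLIT2 ran from −0.06 without control replicate 1 to 1.02 without control replicate 3. A gene at 3 reads or fewer in a library, such as NRP1, EPHB2 and SEMA4D, is limited by depth.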
